A study of Mus musculus with 12 samples.

Results

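Huntingtin, the protein mutated in Huntington's disease, was followed at the RNA level together with 7 genes whose proteins bind it or act on it. The members were the rows of the deposited count table whose gene name was Htt, Hap1, Hip1, Hip1r, F8a, Zdhhc17, Sh3gl3 or Rasd2. All 8 were found, 1 row each, among 48795 genes. All 8 passed the expression filter, which kept 17725 genes for testing. The rule goes by gene name and uses no measured value, though the set was proposed with earlier results of these data known. The study compared the piriform cortex, a part of the cortex that receives input from the olfactory bulb, of 6 Q140 knock-in mice and 6 wild types by RNA sequencing, as a model of Huntington's disease. Q140 is an allele of the mouse gene Htt with an expanded CAG repeat, and the Q140 animals were heterozygous, so each kept 1 wild type allele. Every animal was on the C57BL/6 background and 12 months old, and each genotype had 3 males and 3 females. A knock-in allele is carried by every cell of the animal, so these are whole-tissue values from mice in which all cell types carry it.

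Huntingtin is a large scaffold protein found throughout the brain that links vesicles to motor proteins, takes part in endocytosis and autophagy, and binds regulators of transcription. Its expanded form harms above all the projection neurons of the striatum and, with time, the cortex. Its partners connect it to separate tasks. Hap1, huntingtin-associated protein, ties it to the motors of axonal transport. Hip1 and its relative Hip1r are adaptors between clathrin and actin in endocytosis, and Sh3gl3, endophilin A3, bends membrane at endocytic sites. F8a encodes Hap40, which packs against huntingtin and stabilises it. Zdhhc17, also called Hip14, is the palmitoyl transferase that attaches fatty acid to huntingtin and to synaptic proteins. Rasd2 encodes Rhes, a small GTPase most abundant in striatal neurons that binds mutant huntingtin and adds the modifier SUMO to it.

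The sequence on which the genotype turns lies at the start of the Htt coding region, in exon 1 of the GENCODE M21 gene model on GRCm38, plus strand. The reference mouse sequence of chr5:34761907-34762017, the opening 111 coding bases, is shown with the glutamine codons of the repeat in capitals.

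Htt: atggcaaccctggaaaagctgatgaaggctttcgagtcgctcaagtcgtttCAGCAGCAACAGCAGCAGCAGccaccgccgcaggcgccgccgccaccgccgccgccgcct

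The capitals mark 7 glutamine codons, 6 of them CAG and 1 of them CAA, at codons 18 to 24, and proline codons follow. This is the wild type mouse allele, the short form of the repeat that is expanded in the Q140 allele. The sequence of the knock-in allele was not used here, and how reads over the expanded repeat were aligned was not tested. Exon 1 holds 203 coding bases. The reads of Htt were counted over all its annotated exonic bases, 24438, and the counts sum both alleles.

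Total counts ranged from 19587208 to 35198602 per animal, and between 23215 and 24634 genes had a read. In the comparison of Q140 with wild type, 1982 of 17725 genes passed an adjusted p of 0.05 (11.2%, edgeR quasi-likelihood test with Benjamini-Hochberg adjustment), 797 higher (4.5%) and 1185 lower (6.69%). Scaled by total counts only, 2446 passed, 1624 of them higher. Markers of excitatory neurons were present in every animal. The summed level of 14 excitatory neuron markers was 7431 to 9461 CPM (counts scaled to library size and composition) in wild types and 6011 to 6630 CPM in Q140, and 6 of the 14 fell while 0 rose. Of 16 oligodendrocyte markers 7 rose and 0 fell, with summed levels of 3896 to 5499 and 4449 to 6342 CPM. Of 15 meningeal markers 0 passed, and their summed level was 42.5 CPM in the lowest wild type, number 3, and at least 207.8 CPM in Q140. The striatal markers were lowest in wild type 6. Of 12 astrocyte markers 1 rose and 2 fell, of 12 microglia markers 2 rose, of 14 endothelial and mural markers 1 rose, and of 14 inhibitory neuron markers 4 fell. The inhibitory mean was 0.010 to 0.274 in wild types and -0.222 to 0.003 in Q140 (centred log2 scale), without overlap, and was not used as a covariate. In bulk tissue, fewer cells of a type and less RNA per cell cannot be told apart. The means of the excitatory and of the oligodendrocyte markers, used below as covariates, largely follow genotype. Fits with them can therefore hardly separate genotype from marker level. Animal names carry a prefix whose meaning is not given. RFckQ marks 4 wild types and 1 Q140 animal, RFQ marks 1 wild type and 3 Q140 animals, FMQ marks 1 wild type, and Q140 animals 1 and 2 have none.

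Htt and F8a changed in Q140 cortex, in opposite directions, and the other 6 members did not pass. The level of Htt itself fell by 22.6%, and F8a, the gene of its tight binding partner Hap40, rose by 19.6%. These 2 of 8 members stand beside 11.2% of all genes tested, and Htt is itself the gene altered by the Q140 allele. F8a was the only partner that passed. Htt (ENSMUSG00000029104, chr5:34761740-34912534) spanned 179.9 to 204 CPM in wild types with a median of 198, and 143 to 164 CPM in Q140 with a median of 150.0. Every Q140 animal lay below every wild type. That gave means of 196 ± 8.15 and 151 ± 8.19 CPM (SD over 6 animals each) and a log2 fold change of -0.37 (SE 0.0428, 95% interval -0.46 to -0.28, edgeR adjusted p = 0.000203). It was the only member whose genotypes did not overlap, against 4.59% of all tested genes. The fall was seen in each fit that left out 1 animal (-0.40 to -0.36), and it was -0.37 with the excitatory marker mean as covariate (adjusted p = 0.0102) and -0.30 with the oligodendrocyte mean (adjusted p = 0.0163). Among the 9 animals named RFQ or RFckQ, with the prefix as covariate, it was -0.33 and did not pass (edgeR adjusted p = 0.0683), and among those of the name numbers 150 and 161 it was -0.31 (edgeR adjusted p = 0.623). Without wild types 3 and 6 it was -0.36 and passed (edgeR adjusted p = 0.00256).

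**Figure D1:**
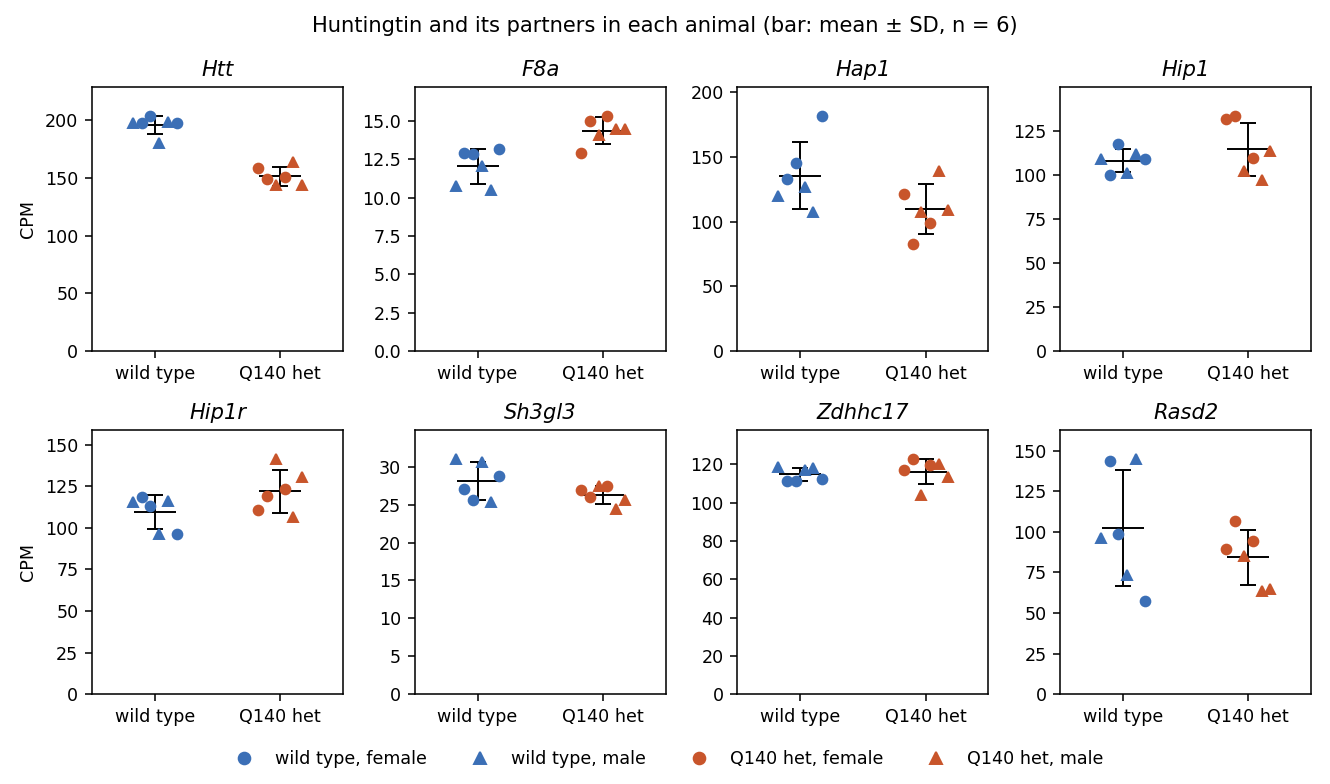
Level in CPM of the 8 members in each animal, on axes that start at 0, with wild types in blue, Q140 in orange, circles for females and triangles for males, and a black bar for the mean ± SD of 6 animals. All 6 Q140 animals lie below all 6 wild types for Htt, and 5 of 6 lie above all wild types for F8a. The wild types are most scattered for Rasd2.

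F8a (ENSMUSG00000078317, chrX:73228291-73230795, plus strand, 1 exon) is a small intronless gene on the X chromosome and was the least abundant member, with 285 to 534 reads per animal. It spanned 10.5 to 13.2 CPM in wild types with a median of 12.5, and 12.9 to 15.4 CPM in Q140 with a median of 14.4. In Q140, 5 of 6 animals lay above every wild type, and female 1, at 12.9 CPM, lay among the wild type females. The means were 12.0 ± 1.15 and 14.4 ± 0.859 CPM (SD over 6 animals each) and the log2 fold change was 0.26 (SE 0.0656, 95% interval 0.12 to 0.40, edgeR adjusted p = 0.0226). The sign held in every alternative, but the call was close to the threshold. It was lost without wild type 1 (0.24, adjusted p = 0.0595), without wild type 5 (0.23, adjusted p = 0.0513) and without Q140 animal 2 (0.26, adjusted p = 0.0524), each by edgeR. With the oligodendrocyte marker mean as covariate the difference was 0.31 and did not pass (adjusted p = 0.126), and with the excitatory mean it was 0.40 and passed (edgeR adjusted p = 0.0427). Without wild types 3 and 6 it was 0.30 (edgeR adjusted p = 0.0504), and among the animals named RFQ or RFckQ it was 0.25 (edgeR adjusted p = 0.206). Xlr5a, whose span covers F8a on the opposite strand, shares no exonic base with it and had 0 reads.

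**Figure D2:**
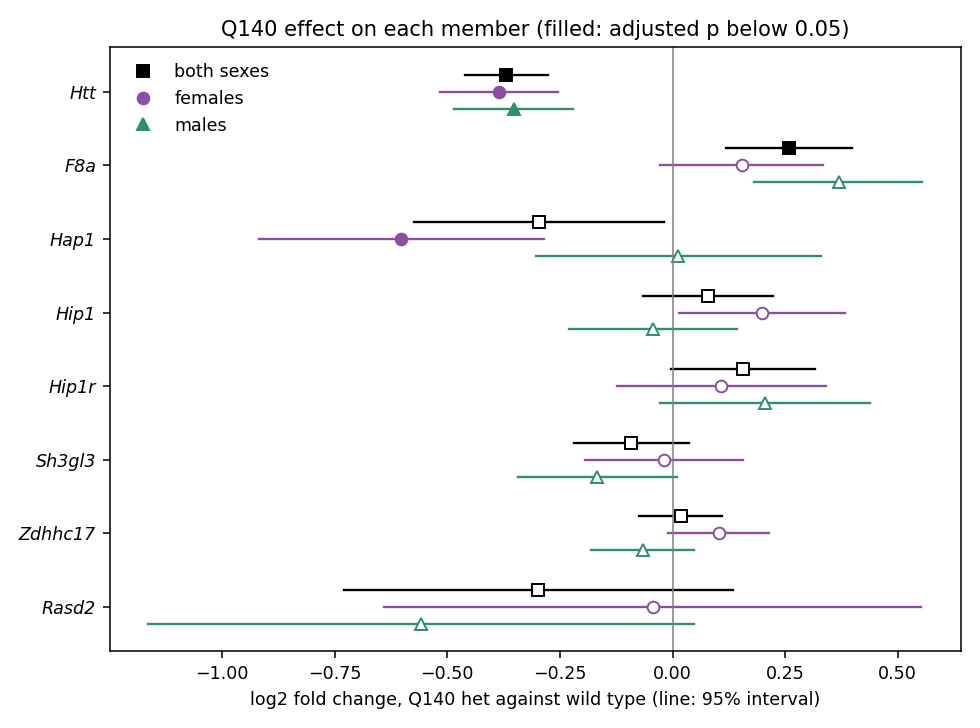
Log2 fold change of Q140 against wild type for each member, with its 95% interval as a line, for both sexes (squares), females (circles) and males (triangles); filled symbols have an adjusted p below 0.05. Htt lies below 0 in all 3 comparisons, F8a passes over both sexes, and Hap1 passes in females and lies at 0.01 in males.

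Hap1 (ENSMUSG00000006930, chr11:100347327-100356128, minus strand), the link between huntingtin and the motors, varied widely between animals. It spanned 107 to 182 CPM in wild types with a median of 129.6, and 82.4 to 139 CPM in Q140 with a median of 108. The groups overlapped, with 2 Q140 animals below every wild type and 2 wild types above every Q140 animal. Over both sexes the log2 difference was -0.30 (SE 0.130, 95% interval -0.57 to -0.02), with 5 of 6 Q140 animals below the wild type mean, and it did not pass (edgeR adjusted p = 0.16). It passed without Q140 animal 5, at -0.39 (edgeR adjusted p = 0.0431). The sign turned to 0.11 with the excitatory marker mean as covariate (edgeR adjusted p = 0.776) and to 0.05 with the oligodendrocyte mean (edgeR adjusted p = 0.911).

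Within females Hap1 fell by 34.1%. The 3 wild type females had 133, 145 and 182 CPM, and the 3 Q140 females had 82.4, 98.6 and 122 CPM, without overlap. The log2 fold change was -0.60 (SE 0.147, edgeR adjusted p = 0.028). In males the wild types had 107, 119.8 and 126.5 CPM and the Q140 animals 108, 109 and 139 CPM, which overlap, with a difference of 0.01 (SE 0.147, 95% interval -0.30 to 0.33, edgeR adjusted p = 0.978). The difference between the sexes itself, males minus females, was 0.61 (SE 0.207, unadjusted p = 0.0109) and did not pass over all genes (edgeR adjusted p = 0.471). So the Q140 effect on Hap1 was not shown to differ between males and females. Name prefixes were uneven within each sex. Wild type females 2 and 3 were named RFckQ and 6 was named FMQ. Q140 females 1 and 2 had no prefix and 4 had RFckQ. Wild type males 1 and 5 were named RFckQ and 4 was named RFQ, while Q140 males 3, 5 and 6 were all RFQ. Within a sex, genotype and prefix can therefore hardly be told apart. The call in females was lost without wild type 3 (-0.64, adjusted p = 0.0644), wild type 6 (-0.46, adjusted p = 0.0948), Q140 animal 2 (-0.48, adjusted p = 0.128) or Q140 animal 4 (-0.59, adjusted p = 0.0653), each by edgeR. Wild type 6, with the highest Hap1 level, is the only animal named FMQ. It also had the highest excitatory marker mean of all animals (0.433 on a centred log2 scale). Its part in the result was not tested beyond the fit without it. Gm20394, a transcript of unknown role that lies within the Hap1 span on the same strand and shares none of its exonic bases, stood at 0.888 ± 0.183 CPM in wild types against 0.450 ± 0.115 CPM in Q140 (SD over 6 animals each, edgeR adjusted p = 0.0108).

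The endocytic adaptors did not pass. Hip1 (ENSMUSG00000039959, chr5:135406531-135545120, minus strand) spanned 100.1 to 117 CPM in wild types with a median of 109, and 97.3 to 134 CPM in Q140 with a median of 111.5 (log2 difference 0.08, 95% interval -0.06 to 0.22, edgeR adjusted p = 0.488). The 2 highest Q140 values, 132 and 134 CPM, were those of females 1 and 2, the animals without a name prefix, and the other 4 Q140 animals lay between 97.3 and 113 CPM, within or below the wild type range. Without both of these animals the difference was -0.02. Hip1r (ENSMUSG00000000915, chr5:123973628-124005558, plus strand) spanned 96.2 to 118 CPM in wild types with a median of 115, and 107 to 142 CPM in Q140 with a median of 121. In Q140, 4 of 6 animals lay above every wild type, and the log2 difference of 0.16 (SE 0.0746, 95% interval -0.00 to 0.32) did not pass (edgeR adjusted p = 0.196). Vps37b, a gene of endosomal sorting, overlaps the Hip1r 3' end on the opposite strand and shares 918 bases, 12.5% of the exonic length of Hip1r. It went the other way, from 50.1 ± 3.66 to 43.5 ± 2.92 CPM (SD over 6 animals each, log2 change -0.21, edgeR adjusted p = 0.0288). As the strand setting of the counting is not given in the sources used here, reads in the shared bases cannot be assigned to either gene with certainty.

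Sh3gl3 (ENSMUSG00000030638, chr7:82173840-82307419, plus strand) spanned 25.3 to 31.1 CPM in wild types with a median of 27.9, and 24.4 to 27.5 CPM in Q140 with a median of 26.5. All 6 Q140 animals lay below the wild type mean, but the groups overlapped, and the log2 difference of -0.09 (SE 0.0597, 95% interval -0.22 to 0.04) did not pass (edgeR adjusted p = 0.353). The interval reaches from -14.1% to 2.54%.

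Zdhhc17 (ENSMUSG00000035798, chr10:110941780-111010140, minus strand), the enzyme that palmitoylates huntingtin, had the smallest spread of the members among wild types. They lay between 111 and 119 CPM with a median of 115, and Q140 animals between 104 and 123 CPM with a median of 118. Its coefficient of variation among wild types was 2.99%, in the 8.6th percentile of 10508 genes with at least 10 CPM, whose median was 6.11%. Among Q140 animals it was 5.80%, above that of Sh3gl3 (4.51%) and of Htt (5.40%). Over both sexes the log2 difference was 0.02 (edgeR adjusted p = 0.827). Its 95% interval was -0.07 to 0.11, which reaches from -4.97% to 7.99%. The 3 Q140 females, at 117 to 123 CPM, lay above the 3 wild type females, at 111 to 112 CPM. The males overlapped, with wild types at 117 to 119 CPM and Q140 at 104 to 120.0 CPM. Set against each other, male effect minus female effect, these gave -0.17 (unadjusted p = 0.0403) and did not pass (edgeR adjusted p = 0.524).

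Rasd2 (ENSMUSG00000034472, chr8:75213944-75224113, plus strand), which encodes the striatal GTPase Rhes, was the most variable member and did not pass. It spanned 57.6 to 145 CPM in wild types with a median of 97.5, and 63.8 to 107 CPM in Q140 with a median of 87.5. All Q140 animals lay within the wild type range. The log2 difference was -0.30 (SE 0.202, 95% interval -0.73 to 0.13, edgeR adjusted p = 0.373), so changes from -39.7% to 9.75% lie within the interval. Its coefficient of variation among wild types, 35.0%, was in the 99.0th percentile of those 10508 genes.

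The spread of Rasd2 followed that of other striatal genes. A mean was taken per animal over 22 markers of striatal projection neurons, such as the dopamine receptor gene Drd1, leaving Rasd2 out. Over the 12 animals Pearson's r with Rasd2 was 0.932 (permutation p = 1e-05, the smallest that 100000 resamples can give, adjusted p = 2e-05) and Spearman's rho was 0.916 (permutation p = 6e-05, adjusted p = 0.00012), adjusted over the 2 relations computed. Within the 6 wild types r was 0.969 (exact permutation p = 0.00833), and within the 6 Q140 animals it was 0.966 (exact permutation p = 0.025). Without the animals farthest from the median, wild type 6 and Q140 animal 6, it was 0.976. Wild type 6 had the lowest striatal mean, -1.64 on a centred log2 scale, and the lowest Rasd2 level. Wild types 2 and 5 had the highest striatal means, 0.851 and 0.937, and the highest Rasd2 levels. The summed level of the list was 898 to 3059 CPM in wild types and 1158 to 1979 CPM in Q140, and all 22 genes had reads. No name prefix held 6 animals, so the relation was not computed within prefixes.

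**Figure D3:**
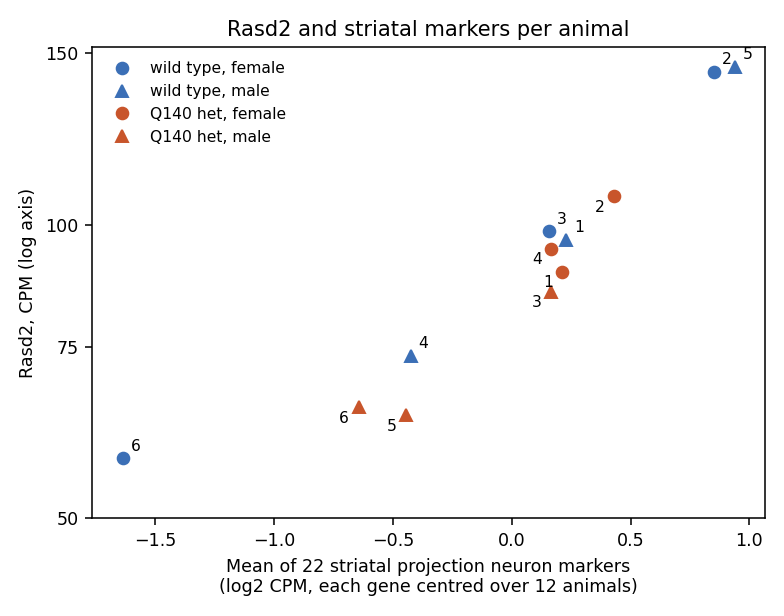
Rasd2 in CPM (log axis) against the mean of 22 striatal projection neuron markers in each animal (log2 CPM, each gene centred over 12 animals), with wild types in blue, Q140 in orange, circles for females, triangles for males and animal numbers beside the points. The points follow a rising line in both genotypes, from wild type 6 at the lower left to wild types 2 and 5 at the upper right.

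With the striatal mean as a covariate, Rasd2 was lower in Q140 by 0.21 on the log2 scale and passed (edgeR adjusted p = 0.0136). In that fit 4 of 8 members passed, Htt, F8a, Rasd2 and Hap1 (-0.30, edgeR adjusted p = 0.0408), against 14.9% of all genes tested. With the excitatory marker mean as covariate Rasd2 was at -1.08 (edgeR adjusted p = 0.00174), with the meningeal mean at -0.36 (adjusted p = 0.388), and with the oligodendrocyte mean at -0.76 (adjusted p = 0.115). Over all 31 alternatives Rasd2 kept its sign but ran from -1.08 to -0.0068. It passed in only 2 of them, the fits with the striatal and with the excitatory mean. Of the 22 striatal markers 2 fell, the opioid peptide genes Penk and Pdyn, 0 rose and 20 did not pass, with a median log2 difference of -0.21 against 0.0045 over all genes tested. For Hap1, which is abundant in hypothalamus and amygdala, the mean over the 9 tested of 20 listed markers of those regions gave r = -0.209 over the 12 animals (permutation p = 0.519, adjusted p = 0.519) and rho = -0.266 (permutation p = 0.406). Within the 6 wild types r was 0.211 (exact permutation p = 0.686), and within the 6 Q140 animals it was -0.724 (exact permutation p = 0.106). Without the animals farthest from the median r was -0.02.

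Levels were compared between genes per length, as FPKM (fragments scaled to exon length and sequencing depth). In wild types the median FPKM fell in the order Hap1 (34.0), Rasd2 (30.1), Zdhhc17 (22.8), Hip1r (15.2), Hip1 (8.25), Htt (7.96), Sh3gl3 (6.31) and F8a (4.88). Hap1 stood in the 94.8th percentile of 30603 genes with a read and F8a in the 72.9th. In these deposited values the wild type ranges of Hap1 and Rasd2 overlapped, as did those of Rasd2 and Zdhhc17 and those of Hip1 and Htt. The other neighbours in the order did not overlap. The FPKM of Zdhhc17 rests on 4948 bases, against 7048 exonic bases in GENCODE M21. On the longer length it would stand lower, and whether it would then overlap Hip1r was not computed. In Q140 the order differed at 1 place, with Htt (6.15) just below Sh3gl3 (6.16), and F8a at 5.94 came close to both. The FPKM of Htt rests on all annotated exonic bases, 24438, whereas its longest coding transcript has 13215. On that shorter length Htt would stand at 14.7 in wild types and 11.4 in Q140. On their own longest coding transcripts Sh3gl3, with 1647 in place of 4319 bases, would stand at 16.6 and 16.2. Hip1 would stand at 13.6 and 14.5, Hip1r at 16.7 and 18.0, and F8a, with its length unchanged, at 4.88 and 5.94. The order of Hip1, Htt and Sh3gl3, and how close F8a comes to Htt and Sh3gl3 in Q140, therefore depend on the length used.

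**Figure D4:**
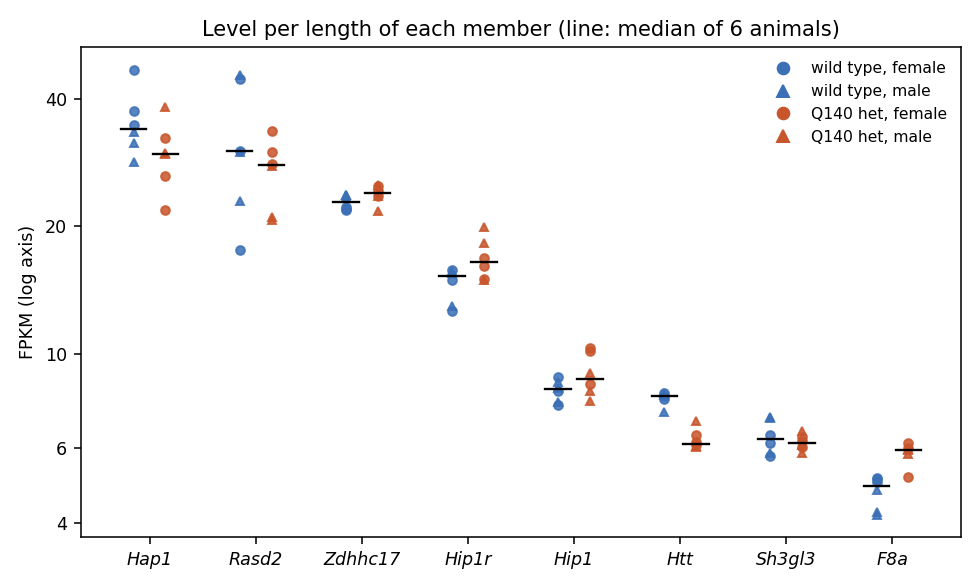
Level per length (FPKM, log axis) of the members in order of their wild type median, with 6 wild types in blue and 6 Q140 animals in orange for each gene, circles for females, triangles for males and a line at the median. Hap1 and Rasd2 are the highest and most scattered. On the lengths of the deposited FPKM, Htt and F8a, far apart in wild types, lie close together in Q140.

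The proteins act together with huntingtin, so each partner was also set against Htt within the same animal, as a ratio of FPKM values. F8a to Htt was 0.517 to 0.654 in wild types, with a mean of 0.601, and 0.796 to 0.992 in Q140, with a mean of 0.929, a ratio 1.54 times as high. The genotypes did not overlap for F8a, nor for Hip1r (1.45 times), Hip1 (1.37 times) and Zdhhc17 (1.31 times). They overlapped for Sh3gl3 (1.21 times), Rasd2 (1.07 times) and Hap1 (1.04 times). All of these ratios share the Htt value, which fell without overlap between the genotypes. A partner whose own level did not change can therefore separate too. Hip1, Hip1r and Zdhhc17 did not pass on their own, with log2 differences of 0.08, 0.16 and 0.02. The share of all genes whose ratio to Htt separates was not computed. The ratios are given as a description of RNA levels with no test.

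**Figure D5:**
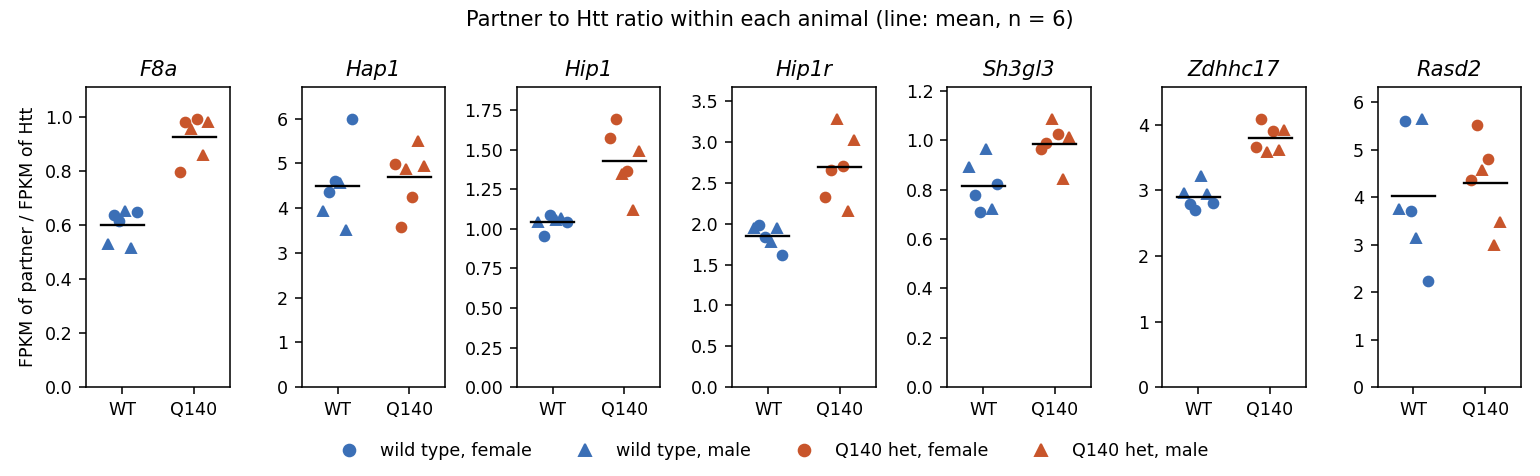
Ratio of each partner's FPKM to that of Htt within each animal, on axes that start at 0, with wild types in blue, Q140 in orange, circles for females, triangles for males and a line at the mean of 6 animals. The genotypes are separate for F8a, Hip1, Hip1r and Zdhhc17 and overlap for Hap1, Sh3gl3 and Rasd2.

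Htt fell in each sex, though within a sex genotype and name prefix can hardly be told apart, as given above for Hap1. In females it went from 199.5 ± 3.82 to 153 ± 4.74 CPM (SD over 3 animals each, log2 change -0.39, edgeR adjusted p = 0.00431), and in males from 192 ± 10.4 to 150.3 ± 11.9 CPM (-0.35, edgeR adjusted p = 0.0159). The 2 effects differed by 0.03 (95% interval -0.15 to 0.22, edgeR adjusted p = 0.92). The male call was lost without wild type 1 (-0.33, adjusted p = 0.0872), wild type 5 (-0.33, adjusted p = 0.0789), Q140 animal 3 (-0.32, adjusted p = 0.0718) or Q140 animal 6 (-0.32, adjusted p = 0.1), each by edgeR. F8a was higher in the 3 Q140 males, at 14.1, 14.4 and 14.4 CPM, than in the 3 wild type males, at 10.5, 10.8 and 12.1 CPM. That difference of 0.37 (SE 0.0864) narrowly missed the threshold (edgeR adjusted p = 0.0572), and it passed without wild type 4 (0.43, adjusted p = 0.0473) or without Q140 animal 1 (0.37, adjusted p = 0.0426) and with DESeq2 (0.37, adjusted p = 0.0174). In females it was 0.15 (edgeR adjusted p = 0.293), and the 2 effects did not differ beyond their spread (0.22, edgeR adjusted p = 0.606). In females 2 members passed, Htt and Hap1, against 7.05% of all genes, and in males 1, Htt, against 1.4%.

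No member's Q140 effect differed between the sexes by the edgeR test, nor did that of any of the 17725 genes (0%), while 1633 genes had an unadjusted p below 0.05 and DESeq2 called 25. No member differed between males and females, against 0.654% of all genes. The nearest were Hip1, at -0.14 in males relative to females (95% interval -0.28 to 0.00, edgeR adjusted p = 0.382), and the X-linked F8a, at -0.12 (95% interval -0.26 to 0.03, edgeR adjusted p = 0.476).

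Among 31 other genes whose proteins bind huntingtin or its complexes, 5 fell, 0 rose and 26 did not pass, with a median log2 difference of 0.01. That is 16.1% of the list, against 11.2% of all genes tested, 6.69% being lower. The falls included Kalrn, a guanine nucleotide exchange factor of dendritic spines that also binds Hap1, from 517 ± 28.4 to 386 ± 23.8 CPM (SD over 6 animals each, log2 change -0.42, SE 0.0479, edgeR adjusted p = 0.000195). Itpr1, the calcium release channel of the endoplasmic reticulum, went from 665 ± 21.1 to 550.3 ± 35.4 CPM (SD over 6 animals each, -0.27, edgeR adjusted p = 0.002). Abi2, an actin regulator (-0.20, edgeR adjusted p = 0.0103), Pacsin1, a membrane-bending protein of synapses (-0.20, edgeR adjusted p = 0.0108), and the postsynaptic scaffold Dlg4 (-0.18, edgeR adjusted p = 0.0269) were the other falls. Dlg4 did not pass without wild type 1 or without Q140 animal 2, 4 or 6 (-0.18, -0.17, -0.17 and -0.17). Dlg4 is the fifth by p in this list, beyond the 4 that the rule names, and was added here after its value was seen. The rule does name it among the Zdhhc17 substrates below. Dnm1, Sgip1, Map6 and Capn2 below were likewise added after their values were seen. Without wild type 4, 8 of the 31 passed.

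The falls of this and the following lists stand beside marker lists that moved with genotype. The excitatory mean was -0.146 to 0.433 in wild types and -0.253 to -0.055 in Q140 (centred log2 scale). Apart from wild type 5, at -0.146, all wild types lay at 0.117 or above. The oligodendrocyte mean was at most -0.009 in wild types, and at least 0.075 in Q140 apart from animal 5, at -0.135. Both lists hold genes that passed the genotype test, such as Camk2a and Mog. Calls lost or gained with these 2 means therefore cannot separate genotype from marker level. With the excitatory mean as covariate 2.8% of all genes passed, with the oligodendrocyte mean 1.3%, and with the meningeal mean 6.08%. Kalrn passed in these 3 fits, at -0.32, -0.35 and -0.40. Itpr1 passed with the excitatory and meningeal means (-0.32 and -0.28) and was -0.27 with the oligodendrocyte mean (edgeR adjusted p = 0.0525). The other 3 falls did not pass with either the excitatory or the oligodendrocyte mean. Abi2 was at -0.11 and -0.10 in those fits (edgeR adjusted p = 0.441 and 0.368), Pacsin1 at -0.16 in both (0.268 and 0.258) and Dlg4 at -0.07 and -0.10 (0.662 and 0.509).

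Of 26 genes of Hap1 binding and axonal transport, 4 fell (15.4%, against 11.2% of all genes) and 0 rose, with a median of -0.07. They were Kalrn and Itpr1, listed here too, Sort1, a sorting receptor for neurotrophins (-0.21, SE 0.0398, edgeR adjusted p = 0.00523), and the neuronal kinesin Kif5c (-0.22, SE 0.0575, edgeR adjusted p = 0.0269). The Hap1 paralogs Trak1 and Trak2, which tie kinesin to mitochondria, were at -0.07 and -0.02 and did not pass (edgeR adjusted p = 0.325 and 0.802). Kif5c did not pass without wild type 1 or 6 or without Q140 animal 1, 2 or 3 (-0.19, -0.18, -0.22, -0.21 and -0.19). With the excitatory mean as covariate Kif5c was at -0.03 (edgeR adjusted p = 0.869) and Sort1 at -0.19 (0.151), and with the oligodendrocyte mean at -0.12 (0.531) and -0.18 (0.148), none of which passed.

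Of 35 genes of clathrin endocytosis, in which Hip1, Hip1r and Sh3gl3 act, 1 rose, 5 fell and 29 did not pass (17.1% called, against 11.2% of all genes), with a median of -0.04. Hspa8, the chaperone that strips clathrin from vesicles, rose from 434 ± 22.1 to 519 ± 39.9 CPM (SD over 6 animals each, log2 change 0.26, edgeR adjusted p = 0.00416). Fcho1, an initiator of coated pits (-0.35, SE 0.0607, edgeR adjusted p = 0.00298), and Amph, amphiphysin (-0.26, SE 0.0515, edgeR adjusted p = 0.00642), fell, as did Pacsin1, already named, the vesicle-cutting GTPase Dnm1 (-0.20, edgeR adjusted p = 0.0288) and Sgip1, a partner of the Fcho proteins (-0.19, edgeR adjusted p = 0.0489). Dnm1 did not pass without wild type 1, 2 or 3 or without Q140 animal 1, 2, 3 or 4 (-0.20 to -0.17), and Sgip1 passed only without wild type 6 and without Q140 animals 4 and 5. Among the endophilin paralogs of Sh3gl3, the brain-enriched Sh3gl2 fell from 264 ± 15.6 to 220.5 ± 22.9 CPM (SD over 6 animals each, -0.26, edgeR adjusted p = 0.0215) and Sh3glb2 passed at -0.17 (edgeR adjusted p = 0.0423), while Sh3gl1 (-0.07) and Sh3glb1 (0.08) did not pass. The call for Sh3gl2 was lost without wild type 1 (-0.23) and without Q140 animal 2 (-0.24). Sh3glb2 passed in 3 of the 12 fits that each left out 1 animal, those without wild type 4 and without Q140 animals 3 and 6, and in the other 9 it was between -0.18 and -0.14.

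With the excitatory mean as covariate 0 of the 35 endocytosis genes passed, and likewise 0 with the oligodendrocyte mean. Fcho1 was then at -0.33 and -0.30 (edgeR adjusted p = 0.0816 and 0.108) and Hspa8 at 0.19 and 0.23 (0.22 and 0.123). The differences of Amph (-0.13 and -0.16, edgeR adjusted p = 0.405 and 0.266), Dnm1 (-0.12 and -0.14, 0.531 and 0.434), Sh3gl2 (-0.08 and -0.11, 0.701 and 0.541) and Sh3glb2 (-0.10 and -0.12, 0.586 and 0.488) were smaller. Sgip1 was at -0.21 and -0.15 (edgeR adjusted p = 0.269 and 0.458).

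Zdhhc17 belongs to a family of palmitoyl transferases. Of 28 tested genes of these enzymes, their cofactors and the thioesterases that remove the lipid, 1 rose, 3 fell and 24 did not pass (14.3% called, against 11.2% of all genes), with a median of 0.02. Zdhhc22 fell from 22.6 ± 2.20 to 15.9 ± 2.10 CPM (SD over 6 animals each, log2 change -0.51, edgeR adjusted p = 0.00305), with Zdhhc8 at -0.31 (edgeR adjusted p = 0.00855) and Zdhhc15 at -0.27 (edgeR adjusted p = 0.0191). Zdhhc20 rose by 0.14 (edgeR adjusted p = 0.0288). Zdhhc13, the nearest relative of Zdhhc17 and also an enzyme of huntingtin, was at -0.09 and did not pass (edgeR adjusted p = 0.257). Zdhhc15 did not pass without Q140 animal 2 (-0.26), nor Zdhhc20 without wild type 3 or 6 (0.13 and 0.12) or without Q140 animal 1, 2 or 4 (0.14, 0.12 and 0.14). Without Q140 animal 2, 2 genes of this list passed. With the excitatory or the oligodendrocyte mean as covariate 0 passed. Zdhhc22 was then at -0.38 and -0.37 (edgeR adjusted p = 0.163 and 0.134), Zdhhc8 at -0.18 and -0.21 (0.364 and 0.269), Zdhhc15 at -0.22 and -0.26 (0.345 and 0.241) and Zdhhc20 at 0.08 in both (0.544 and 0.496).

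Of 14 genes for proteins that Zdhhc17 palmitoylates, 5 fell, 0 rose and 9 did not pass (35.7% called, against 11.2% of all genes), with a median of -0.09. Snap25, of the vesicle fusion machinery, fell from 3077 ± 171 to 2416 ± 207 CPM (SD over 6 animals each, log2 change -0.35, edgeR adjusted p = 0.00255). Kcnma1, a calcium-activated potassium channel (-0.51, SE 0.0940, edgeR adjusted p = 0.004), the calcium sensor Syt1 (-0.26, edgeR adjusted p = 0.0177), Dlg4 and the microtubule stabiliser Map6 (-0.18, edgeR adjusted p = 0.0311) also fell. Map6 did not pass without wild type 1, 2, 3 or 6 or without Q140 animal 1, 2 or 3 (-0.18 to -0.15). Without wild type 1, and without Q140 animal 2, 3 of the 14 passed. With the excitatory mean as covariate none of these 5 passed. Kcnma1 was then at -0.53 (edgeR adjusted p = 0.0626), Snap25 at -0.32 (0.0915) and Syt1 at -0.22 (0.281), close to their size without it, whereas Dlg4 was at -0.07 (0.662) and Map6 at -0.04 (0.8). In that fit 1 of the 14 passed, Gad2, an enzyme of GABA synthesis, at -0.55 (edgeR adjusted p = 0.0362), against 0.015 without the covariate. With the oligodendrocyte mean 0 of the 14 passed, and Snap25 was at -0.34 (edgeR adjusted p = 0.0655). Gad2 was chosen for mention after its value was seen, as was Capn5 below.

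Of 24 genes of Rhes partners, SUMO attachment and the mTOR pathway, 1 rose, Gnai2, a G protein subunit (0.20, SE 0.0509, edgeR adjusted p = 0.0232), and 0 fell (4.17% called, against 11.2% of all genes). Gnai2 did not pass without wild type 1, 3 or 5 or without Q140 animal 3 (0.18, 0.19, 0.18 and 0.17), nor with the excitatory, oligodendrocyte or meningeal mean as covariate (0.27, 0.23 and 0.19). Without Q140 animal 5, 3 genes of the list passed, and without wild type 4, 2. Rasd1, the paralog of Rasd2, stood at 5.14 ± 0.864 and 5.32 ± 1.80 CPM (SD over 6 animals each) and did not pass (0.03, edgeR adjusted p = 0.915). Of 29 genes for enzymes that cleave or modify huntingtin, 2 rose, 3 fell and 24 did not pass (17.2% called, against 11.2% of all genes), with a median of -0.00. The deacetylase Hdac1 rose by 0.27 (SE 0.0512, edgeR adjusted p = 0.00445), and the protease Capn2 by 0.20 (SE 0.0455, edgeR adjusted p = 0.0144). The kinase Nlk (-0.29, SE 0.0558, edgeR adjusted p = 0.00523) fell, as did 2 subunits of calcineurin, a phosphatase of huntingtin, Ppp3r1 (-0.22, edgeR adjusted p = 0.00818) and Ppp3ca (-0.23, edgeR adjusted p = 0.01). None of these 5 passed with the oligodendrocyte or the excitatory mean as covariate. Hdac1 was then at 0.25 and 0.27 (edgeR adjusted p = 0.129 and 0.128), Capn2 at 0.13 and 0.14 (0.359 and 0.384), Nlk at -0.24 in both (0.159 and 0.174), Ppp3r1 at -0.18 and -0.20 (0.202 and 0.176) and Ppp3ca at -0.22 and -0.29 (0.153 and 0.056). With the excitatory mean 1 of the 29 passed, the protease Capn5, at 0.42 (edgeR adjusted p = 0.00241), against 0.02 without it. With the meningeal mean as covariate the calls of Kif5c, Dnm1, Sgip1, Sh3gl2, Sh3glb2, Zdhhc15, Zdhhc20, Syt1, Map6, Gnai2 and Capn2 were lost, each with its sign kept, and the other listed genes named above as risen or fallen still passed.

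Genes whose log2 CPM was among the most like that of Htt over the 12 animals, by Pearson's r among tested genes with a mean of at least 1 CPM, were Tsnax (0.974), Gsg1l (0.970), RP23-114B10.6 (0.969) and Dgat2l6 (0.967). All 4 were lower in Q140, and these values are a description over samples that share the genotype difference. Tsnax, which encodes the nuclease component translin-associated factor X, went from 250.4 ± 15.7 to 179 ± 7.65 CPM (SD over 6 animals each, log2 change -0.48, edgeR adjusted p = 5.26e-05), and Gsg1l, an auxiliary protein of AMPA receptors, from 141 ± 8.58 to 85.9 ± 9.15 CPM (SD over 6 animals each, -0.71, edgeR adjusted p = 4.89e-05).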

How the data were processed

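RNA from the piriform cortex of 12 mice was sequenced, 6 per genotype. The labels' protocols name a Qiagen RNeasy kit and the Illumina TruSeq stranded preparation. Tools listed in the submitters' processing notes are HTSeq 0.12.3, STAR 2.7.5c and SAMtools 1.10, with the builds GRCm38 and mm10. The deposited count table holds whole reads per gene, not normalized. The deposited FPKM values were computed by the authors from those counts: over 15054 genes with at least 20 counts in each library, the gene length worked back from both tables varied by at most 5.3e-09 (coefficient of variation) between animals. Zdhhc17 has 4948 bases in the FPKM table and 7048 in GENCODE M21, which supplied coordinates for 48435 of 48795 genes.

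The quasi-likelihood test of edgeR 4.0.16 (R 4.3.3) was applied to the counts with TMM scaling, the default expression filter by genotype, sex as a covariate and p-values adjusted over 17725 genes by Benjamini-Hochberg. Effects within each sex and their difference were contrasts over 4 groups of genotype and sex. Library factors were 0.970 to 0.996 in wild types and 0.998 to 1.03 in Q140. As every library came from its own animal, the p-values reflect variation among animals. The members and gene lists were chosen with earlier results of these data known, and no set test was run. Named genes were all members and paralogs, up to 4 that passed with the smallest p in each list, and 5 like Htt, 1 of which is not reported here. Alternatives were other size factors and filters, DESeq2 1.42.0, limma 3.58.1 on counts (voom with sample weights) and on log2 of FPKM plus 0.1 or 1, each animal left out, marker means as covariates, subsets by animal name, and offsets for length and GC content. Leaving out Q140 animals 1 and 2 together was chosen after seeing the data. The fits were also run on simulated counts with 200 changed genes. Those counts held no marker shifts and no differences between name prefixes, so they do not test the fits for such effects.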

Additional observations from a re-analysis of the deposited data

Results flagged for a closer look

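Htt in wild type 4 stood apart from the other wild types. It had 179.9 CPM, whereas the other 5 wild types lay between 197.2 and 203.9 CPM, so that its gap to the nearest of them was 0.720 of the whole range of the group, past the critical value of 0.625 for 6 samples. The value was still above that of every Q140 animal. Members were examined in 16 groups of 6 animals (8 genes in each genotype), and chance alone flags about 1 in 20 such groups. Wild type 4 is the only wild type with the name prefix RFQ and also had the highest meningeal mean of all animals (1.32 on a centred log2 scale). The part of either in the lower value was not tested.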

How the results depend on the processing

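No paired analysis was possible because the labels do not say what the numbers in the animal names stand for, and few animals share one across genotypes. The number 150 is held by 1 wild type and 1 Q140 animal and 161 by 1 and 2, and the fit on these 5 animals with the number as a covariate is the number subset below. Htt kept its sign in all 31 alternatives (-0.40 to -0.27) and passed in 29, with -0.33 among the animals of the prefixes RFQ and RFckQ and -0.31 among those of the name numbers 150 and 161, subsets with fewer animals. F8a kept its sign in all 31 (0.23 to 0.40) and passed in 23. It did not pass in 3 of the 12 fits that left out 1 animal, without wild types 3 and 6 (0.30), with the oligodendrocyte or meningeal mean as covariate (0.31 and 0.25), or in the prefix and number subsets (0.25 and 0.26).

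Genes called between genotypes numbered 862 without wild types 3 and 6, 703 without Q140 animals 1 and 2, 230, 1078 and 497 with the oligodendrocyte, meningeal and excitatory means as covariates, 81 in the prefix subset and 1 in the number subset. Members called were 1 without wild types 3 and 6, and 0 in the prefix and 0 in the number subset. With a covariate they were 1 with the oligodendrocyte, 1 with the meningeal, 3 with the excitatory and 4 with the striatal mean. For males, 576 genes passed without the low-count filter and 688 with DESeq2, 2 of them members, and for males against females 220 and 350. DESeq2 called 25 genes for the difference between the sexes, 0 of them members. Leaving out 1 animal gave 1139 to 2504 calls (lowest without Q140 animal 2, and 1197, 1231 and 1314 without wild type 1, wild type 3 and Q140 animal 3) and 1 to 3 members. In females it gave 228 to 1426 calls (lowest without Q140 animal 2) and 1 to 2 members. In males it gave 41 to 747 (lowest without wild type 1, highest without Q140 animal 5) and 0 to 2 members, for the difference 0 to 4 calls, and for males against females 45 to 146 (lowest without Q140 animal 2).

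Gad2 and Capn5 were not followed through all alternatives. Gad2, as given above, turned from 0.015 to -0.55 with the excitatory mean and passed there (edgeR adjusted p = 0.0362). Among the members and the other genes named from the lists of partners, pathways and paralogs, signs turned only for differences that had not passed. Each of those turned values did not pass either. Zdhhc17 was -0.0096 without wild types 3 and 6 and -0.0084 without Q140 animals 1 and 2. Hap1 was 0.0468 and 0.111 with the oligodendrocyte and excitatory means. Hip1 was -0.0011 and -0.0585 with those means, -0.0440 in the number subset and -0.0230 without Q140 animals 1 and 2, and Hip1r was -0.0029 with the excitatory mean. In males Hap1 ran from -0.1194 to 0.0801 with 1 animal left out, and the difference of Htt between the sexes from -0.0349 to 0.0663. Trak2 was 0.0228 with total counts only, 0.0224 and 0.0218 on FPKM plus 0.1 and plus 1, 0.0148 and 0.0660 with the oligodendrocyte and excitatory means, and -0.0458 to 0.0053 with 1 animal left out. Trak1 was 0.0087 with the excitatory mean. Sh3gl1 was 0.0171 and 0.0246 in the prefix and number subsets. Rasd1 was -0.1013 and -0.2044 with the oligodendrocyte and excitatory means, -0.1620 and -0.2568 in the prefix and number subsets, -0.0027 with offsets for length and GC content, -0.1706 without Q140 animals 1 and 2, and -0.1056 to 0.0927 with 1 animal left out. The cause of these changes was not tested.

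With 3 animals per sex and genotype the intervals are wide. Standard errors over both sexes were largest for Rasd2 (0.202) and Hap1 (0.130).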
